A study of Mus musculus with 16 samples.

Results

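The 10 genes described here encode the ligands of transforming growth factor beta (TGF-beta) and activin A, proteins that bind these ligands, their receptors and an intracellular inhibitor. They were taken by gene symbol from the 55359 genes of the count table: the ligand genes Tgfb1, Tgfb2, Tgfb3 and Inhba, the activin inhibitor gene Fst, the matrix protein gene Ltbp2, the receptor genes Tgfbr1, Tgfbr2 and Tgfbr3, and Smad7. Each symbol matched 1 row, and all 10 were among the 20953 genes that passed the filter on low counts. RNA was sequenced from the periodontal ligament, the connective tissue between tooth root and socket, of wild-type male C57BL/6J mice aged 9 weeks. In the first group (ligature plus trauma), mice carried both a silk ligature around the upper left second molar and composite resin on its occlusal surface. The ligature group had the thread alone, which brings on periodontitis, the trauma group had the resin alone, which overloads the tooth, and the control group had no treatment. There were 4 libraries in each of the 4 groups. The labels number the libraries without saying whether each is 1 mouse, so the p-values measure the spread between libraries, which may be partly technical. The labels give no time between the procedure and sampling, and the series title refers to bone tissue where the labels name the ligament.

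TGF-beta is secreted in a latent complex that is anchored to extracellular matrix by latent TGF-beta binding proteins and released by integrins, proteases or the acid of resorbing osteoclasts. The active ligand binds the type II receptor TGFBR2, which recruits and phosphorylates the type I receptor TGFBR1, and SMAD2 and SMAD3 carry the signal to the nucleus. Activin A, a dimer of the Inhba product, reaches the same SMAD proteins through its own receptors, and follistatin, the Fst product, binds and neutralises it. In periodontal ligament and bone these ligands are known as regulators of collagen synthesis, and both are known to act on osteoclast formation.

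Total counts were between 58458102 and 77468584 per library. Levels are given as CPM, a gene's counts relative to the library total after trimmed-mean scaling, and differences as log2 fold changes with their standard error (SE) from edgeR's quasi-likelihood test, adjusted over all genes tested by the Benjamini-Hochberg method; a difference was called at an adjusted p under 0.05. Genes that mark ligament fibroblasts, such as Scx and Postn, were present in every library: the 10 markers summed to 43570 to 61820 CPM in ligature plus trauma libraries, 34180 to 64140 CPM in ligature, 43580 to 91520 CPM in trauma and 39100 to 95690 CPM in control libraries. In ligature against control 1 of these 10 was called higher (Col12a1) and 4 lower (Tnmd, Aspn, Thbs4 and Col1a1), with a median log2 fold change of -0.74, in a comparison that called 5.88% of all genes higher and 4.78% lower. Markers of other cells moved with the ligature as well. The 8 osteoclast markers summed to 10240 to 12940 CPM in ligature plus trauma, 10840 to 15410 CPM in ligature, 1349 to 4146 CPM in trauma and 1091 to 4089 CPM in control libraries, and 7 of the 8 were higher in ligature than in control libraries. The 8 endothelial markers summed to 514.2 to 734.8 CPM, 494.7 to 709.9 CPM, 150 to 345 CPM and 181.4 to 325.9 CPM in the groups taken in that order, with 5 of 8 higher in ligature than in control. Of 8 neutrophil markers 5 were higher, of 10 oral epithelial markers 6 were lower and of 6 Schwann cell markers 4 were lower in ligature than in control libraries. Of 8 osteoblast markers 3 were lower (Bglap, Sp7 and Runx2), and of 8 monocyte and macrophage markers 3 were higher and 2 lower. The osteoblast markers did not move together: 3 had positive and 5 negative log2 fold changes. Their sum was 23130 to 30040 CPM in ligature and 12980 to 27250 CPM in control libraries. None of these markers was at 0 in every library. The part of these cells in the differences below was not tested, and in bulk tissue fewer cells of a type and less RNA per cell cannot be told apart. In ligature library 2 and ligature plus trauma libraries 2 and 3, counts were shifted to short transcripts: over genes, length correlated by rank with log2 CPM less its mean over the libraries at -0.419, -0.332 and -0.352. The remaining 13 libraries gave -0.172 to 0.312. Among them control libraries gave 0.0992 to 0.312 and trauma libraries -0.172 to 0.108, a difference that leaving out the 3 libraries does not remove. Results are therefore also given without these 3 libraries, for the 10 genes and for most other calls.

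Among the 10 genes the ligature went with more Inhba and Fst RNA and less Tgfb2 RNA. In ligature against control libraries 3 of the 10 were called, 2 higher and 1 lower, where 10.7% of all genes tested were called (5.88% higher and 4.78% lower). Inhba was 4.46-fold higher, Fst 2.26-fold higher and Tgfb2 3.39-fold lower, each from the fitted log2 fold change. With ligature plus trauma, again against control, 3 of the 10 were called, Inhba higher and Tgfb2 and Tgfbr3 lower, where 12.5% of all genes were (6.83% higher and 5.62% lower). These comparisons share the control libraries and are given side by side without a test of their likeness. The median log2 fold change of the 10 genes was -0.36 in ligature plus trauma and -0.31 in ligature libraries, each against control, beside medians of -0.08 and -0.05 over all genes. These medians include the 3 libraries shifted to short transcripts. Without those 3, the middle values of the 10 were -0.29 and 0.11 in ligature and -0.58 and 0.01 in ligature plus trauma. With each library's slope on transcript length as a covariate they were -0.29 and 0.29, and -0.02 and 0.36, in the same order. Against trauma, ligature plus trauma had 1 of the 10 called, Tgfb2, against 5.48% of all genes, and in trauma against control none was, against 0.00477%.

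Counted by ranges, in ligature against control 5 of the 10 genes had no overlap (Inhba and Fst higher, Tgfb2, Tgfb3 and Tgfbr3 lower), where 19.1% of all genes had none. Between ligature plus trauma and control 6 had none (Inhba higher, Tgfb1, Tgfb2, Tgfb3, Tgfbr3 and Smad7 lower), where 21.2% had none. Between ligature plus trauma and trauma Tgfbr1 was higher and Tgfb2 lower without overlap, where 13% of all genes had none. In trauma against control Tgfbr1 and Tgfbr3 were lower without overlap, where 6.93% of all genes had none, and in ligature plus trauma against ligature all 10 genes overlapped, where 1.44% of all genes did not.

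**Figure D1:**
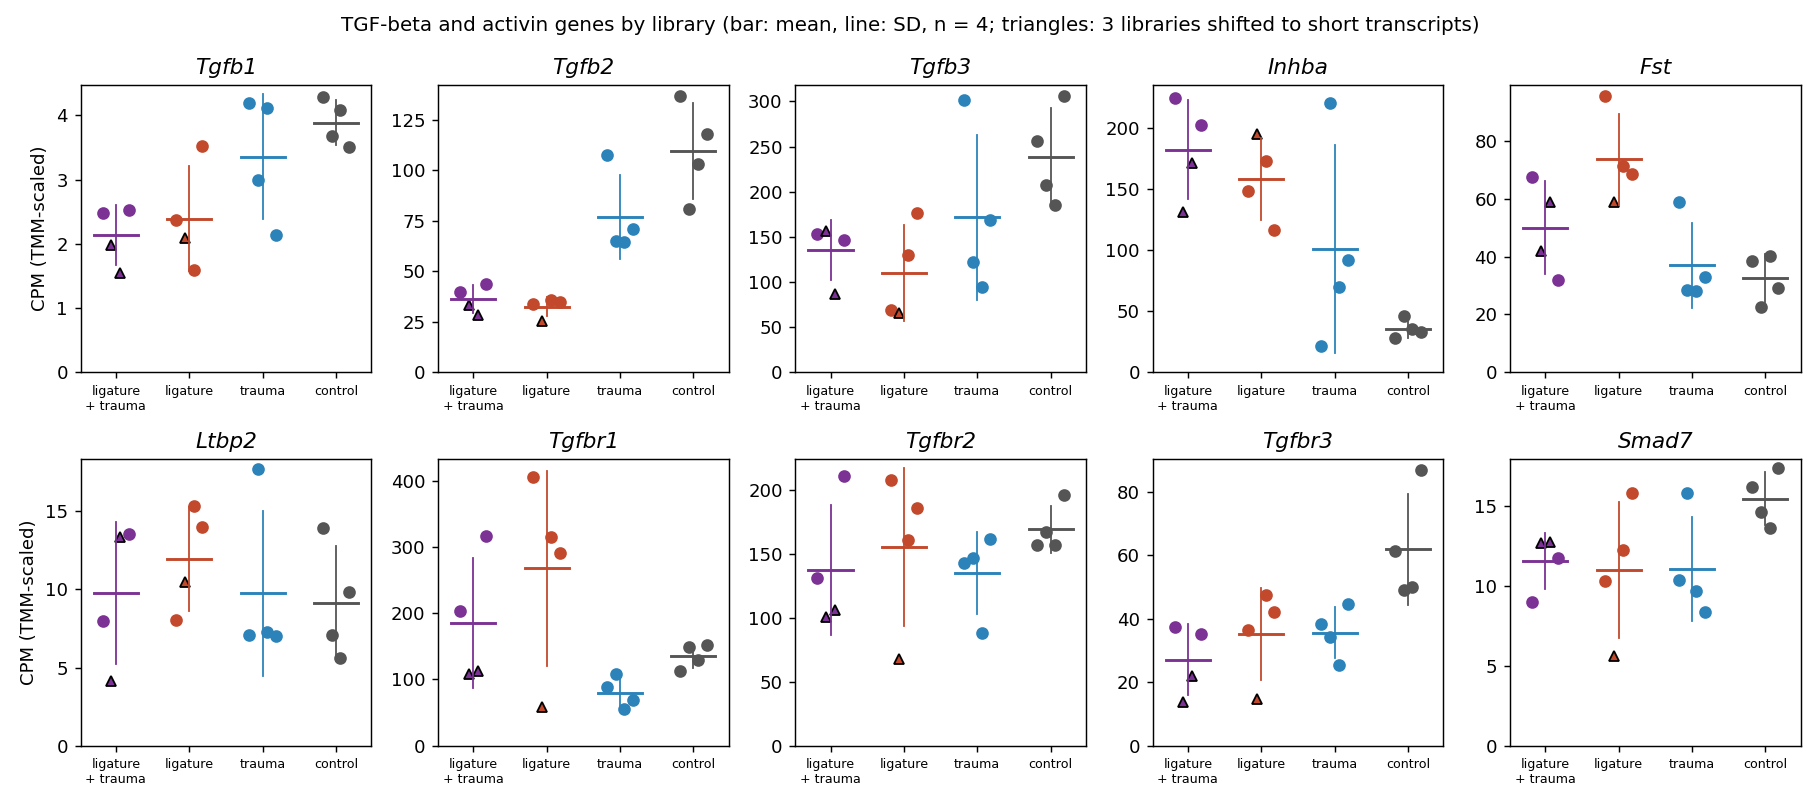
CPM of each of the 10 genes (y axis, linear from 0) in the 16 libraries by group (x axis); points are libraries, horizontal bars the mean and vertical lines the SD (n = 4), and triangles mark the 3 libraries shifted to short transcripts. All 8 libraries with a ligature lie between 25.4 and 43.8 CPM for Tgfb2 and all 8 without between 64.6 and 137 CPM, and for Inhba trauma library 2 stands at 221 CPM among trauma libraries that otherwise reach 92.2 CPM.

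Inhba had the largest rise of the 10 genes with the ligature and Tgfb2 the largest fall, so their promoters, the 250 bases before the transcription start, are shown. They are from RefSeq on build GRCm38.p6, 5′ to 3′ on the gene's strand: chr13:16011601-16011850 on the plus strand for Inhba and chr1:186705990-186706239 on the minus strand for Tgfb2. Capitals mark matches, on either strand, to 4 motifs that were searched: TATAAA, the TATA box; CAGAC, the SMAD box; TGANTCA, the AP-1 site; and TGACGTCA, the cAMP response element. No match overlapped another.
Inhba: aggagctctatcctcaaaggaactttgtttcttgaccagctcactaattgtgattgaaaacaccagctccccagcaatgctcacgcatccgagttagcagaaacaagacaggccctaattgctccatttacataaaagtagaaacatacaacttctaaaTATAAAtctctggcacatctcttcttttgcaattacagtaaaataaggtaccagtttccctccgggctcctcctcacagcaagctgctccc
Tgfb2: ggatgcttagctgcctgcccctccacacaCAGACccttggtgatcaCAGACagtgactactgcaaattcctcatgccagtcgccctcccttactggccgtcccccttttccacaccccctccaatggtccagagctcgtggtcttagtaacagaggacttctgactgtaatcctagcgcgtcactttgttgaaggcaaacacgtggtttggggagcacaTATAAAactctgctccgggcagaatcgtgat
The Inhba window held 1 TATAAA, whose first base was 91 bases before the start, and no match to the other motifs. The Tgfb2 window held CAGAC at 221 and 204 bases and TATAAA at 31 bases before the start. Of 32851 promoter windows of this length, 42.2% held CAGAC, 12.4% TATAAA, 6.75% TGANTCA and 1.55% TGACGTCA. The Inhba window was 43.2% G and C and that of Tgfb2 53.6%. A match describes letters and is no evidence of binding.

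Tgfb2 encodes the TGF-beta isoform that depends most on the co-receptor betaglycan for high-affinity binding. Its level was 39.5, 33.3, 28.3 and 43.8 CPM in ligature plus trauma libraries 1 to 4, 33.5, 25.4, 35.8 and 34.8 CPM in ligature, 108, 64.8, 64.6 and 70.7 CPM in trauma and 137, 80.7, 103 and 118 CPM in control libraries. Every library with a ligature was below every library without one, with medians of 34.2 CPM over the 8 with and 92.1 CPM over the 8 without. Of the 10 genes it was the one with no overlap in this split, which separated 4.62% of all genes tested. Tgfb2 averaged 32.4 ± 4.77 CPM in ligature and 109.7 ± 23.7 CPM in control libraries (SD, n = 4 each), a log2 fold change of -1.76 ± 0.23 (SE, adjusted p = 0.000397). With ligature plus trauma the log2 fold change against control was -1.60 ± 0.23 (adjusted p = 0.000971).
In ligature plus trauma against trauma, a comparison that shares no library with ligature against control, Tgfb2 was 2.12-fold lower (log2 fold change -1.09 ± 0.22, adjusted p = 0.0115). These 3 calls of Tgfb2 held with each of the 16 libraries left out in turn. Without the 3 libraries shifted to short transcripts the values were -1.68 (adjusted p = 0.00105) in ligature against control and -1.40 (adjusted p = 0.0126) in ligature plus trauma against control. The difference from trauma was then no longer called (-0.89, adjusted p = 0.099), in a fit that called 1.77% of all genes there. With each library's slope on transcript length as a covariate edgeR called all 3. The values were -1.51 (adjusted p = 0.000246), -1.26 (adjusted p = 0.00255) and -0.98 (adjusted p = 0.00289), where 10.3%, 5.63% and 8.6% of all genes were called.

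Among the 10 genes Tgfb3 had the highest mean level per length in every group but ligature. In control libraries it averaged 70.6 ± 15.9 CPM per kb of exon, against 21.2 ± 2.77 for Tgfbr1, 21.1 ± 4.55 for Tgfb2 and 20.7 ± 2.24 for Tgfbr2 (SD, n = 4), and these 3 did not differ beyond their spread. Fst followed with 11.5 ± 2.97 CPM per kb, Tgfbr3 with 10.2 ± 2.88 and Inhba with 5.56 ± 1.17, then Smad7 with 3.53 ± 0.38, Tgfb1 with 1.79 ± 0.16 and Ltbp2 with 1.35 ± 0.54. Fst and Tgfbr3 did not differ beyond their spread, nor did Tgfb1 and Ltbp2. In ligature libraries the order was led by Tgfbr1 at 41.7 ± 23.0 and Tgfb3 at 32.5 ± 15.7 CPM per kb, whose spreads overlapped, with Fst at 26.0 ± 5.53, Inhba at 24.8 ± 5.28 and Tgfbr2 at 19.0 ± 7.54 next, also within each other's spread, and Tgfb2 at 6.23 ± 0.92 CPM per kb. Tgfb3 also led in ligature plus trauma libraries with 40.04 ± 9.75 CPM per kb, followed by Tgfbr1 with 28.9 ± 15.3 and Inhba with 28.6 ± 6.36, all within their spread. In trauma libraries Tgfb3 led with 50.7 ± 27.1 CPM per kb, and Tgfbr2, Inhba, Tgfb2, Fst and Tgfbr1 lay between 12.5 and 16.5 CPM per kb without differing beyond their spread.

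The other TGF-beta genes were lower on average with the ligature, without being called. Tgfb3, the isoform best known for palate fusion, had 153, 156, 86.4 and 146 CPM in ligature plus trauma libraries 1 to 4, 68.3, 65.3, 129 and 176 CPM in ligature, 301, 122, 94.5 and 169 CPM in trauma and 256, 208, 185 and 306 CPM in control libraries. Neither ligature group overlapped control, while the trauma libraries reached into the ranges of both. The log2 fold change of Tgfb3 was -1.12 ± 0.37 in ligature against control (adjusted p = 0.0656) and -0.82 ± 0.37 in ligature plus trauma against control (adjusted p = 0.149). The first was called by DESeq2 (adjusted p = 0.02, with 17.6% of all genes called), by limma-voom (adjusted p = 0.046, with 14.5% called), and by edgeR without ligature library 4 (adjusted p = 0.0336) or trauma library 1 (adjusted p = 0.0429). By edgeR it was not called without the 3 libraries shifted to short transcripts (-0.95, adjusted p = 0.153). Nor was it with the slope on transcript length as a covariate (-0.76, adjusted p = 0.198). For ligature plus trauma against control these fits gave -0.68 (adjusted p = 0.433) and -0.23 (adjusted p = 0.821). Ttll5, a gene on the strand opposite Tgfb3, overlaps it and averaged 23.4 CPM. The strand setting of the counts is not given in the sources used here.
Tgfb1, the isoform most abundant in bone matrix, had 78 to 355 reads per library, and its level stood at 1.54 to 2.53 CPM in ligature plus trauma, 1.59 to 3.52 CPM in ligature, 2.14 to 4.19 CPM in trauma and 3.51 to 4.29 CPM in control libraries. The ligature plus trauma libraries lay below all control libraries, but the log2 fold change of -0.87 ± 0.33 was not called by edgeR (adjusted p = 0.0919). DESeq2, which called 20.2% of all genes there, called it (adjusted p = 0.0368). In ligature against control it was -0.70 ± 0.33 (adjusted p = 0.182), with overlapping ranges. Without the 3 libraries shifted to short transcripts edgeR gave Tgfb1 at -0.66 (adjusted p = 0.261) in ligature against control. The value for ligature plus trauma against control was then -0.64 (adjusted p = 0.407).

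Inhba encodes the beta A chain of activin A. Its level was 225, 132, 171 and 202 CPM in ligature plus trauma libraries 1 to 4, 148, 195, 174 and 117 CPM in ligature, 21.8, 221, 69.4 and 92.2 CPM in trauma and 28.2, 45.8, 35.2 and 32.9 CPM in control libraries. Both ligature groups lay above all control libraries, and the trauma libraries reached from below the lowest control to near the top of the range. Inhba averaged 158.4 ± 33.8 CPM in ligature and 35.5 ± 7.46 CPM in control libraries (SD, n = 4 each), a log2 fold change of 2.16 ± 0.47 (adjusted p = 0.00856). For ligature plus trauma the mean was 182.6 ± 40.6 CPM and the log2 fold change against control 2.36 ± 0.47 (adjusted p = 0.00615). Both calls held with each of the 16 libraries left out in turn and without the 3 libraries shifted to short transcripts, where the adjusted p-values were 0.031 and 0.0288.
With trauma alone Inhba averaged 101.1 ± 85.2 CPM, with a log2 fold change of 1.51 against control (95% interval 0.54 to 2.48, adjusted p = 0.559). A trauma library was above a control library in 12 of 16 pairs. The log2 fold change was 0.78 without trauma library 2, the highest of its group, and 1.84 without trauma library 1, the lowest. Between ligature plus trauma and trauma the log2 fold change was 0.85 (adjusted p = 0.322). It was 1.58 without trauma library 2 (adjusted p = 0.0344) and 0.52 without trauma library 1.

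Fst showed 67.7, 41.9, 58.8 and 32.0 CPM in ligature plus trauma libraries 1 to 4, 95.9, 59.1, 71.3 and 68.8 CPM in ligature, 59.0, 28.5, 28.1 and 32.8 CPM in trauma and 38.6, 22.4, 40.4 and 29.2 CPM in control libraries. The ligature libraries lay above all control libraries, and those of ligature plus trauma overlapped control. Fst averaged 73.8 ± 15.7 CPM in ligature and 32.6 ± 8.41 CPM in control libraries (SD, n = 4 each; log2 fold change 1.18 ± 0.30, adjusted p = 0.0194). The call was lost without control library 2 (adjusted p = 0.0637), control library 4 (0.056) or ligature library 1 (0.062). Without the 3 libraries shifted to short transcripts the log2 fold change was 1.25 (adjusted p = 0.0305). For ligature plus trauma against control it was 0.62 ± 0.29 with all 16 libraries (adjusted p = 0.165). The difference between ligature plus trauma and ligature was -0.56 (95% interval -1.18 to 0.06, adjusted p = 1), so the data do not show that the 2 groups differ in Fst.
The ratio of Inhba to Fst in CPM, which is not per length, ranged over 2.91 to 6.32 in ligature plus trauma libraries and over 1.55 to 3.301 in those with the ligature alone. It ranged over 0.369 to 7.76 with trauma alone and over 0.730 to 2.04 in control libraries. The trauma libraries spanned the ranges of all other groups.

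**Figure D2:**
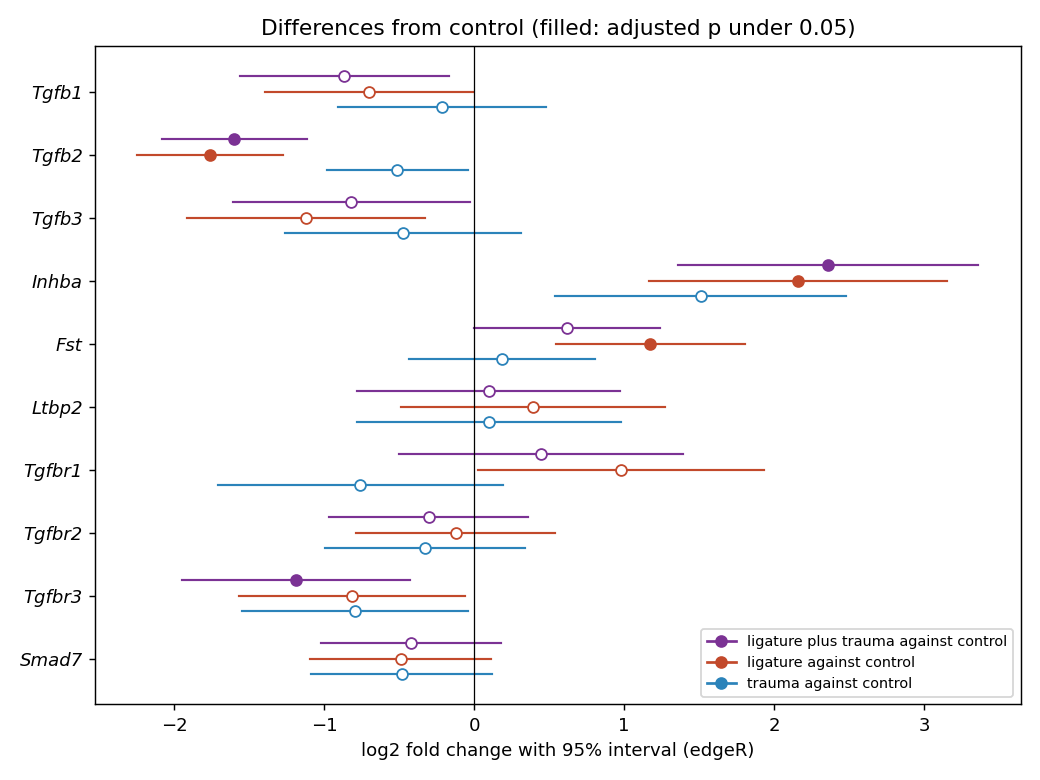
Log2 fold changes (x axis) of the 10 genes (rows) against the shared control libraries in ligature plus trauma, ligature and trauma, with 95% intervals from edgeR; filled points have an adjusted p under 0.05. Inhba lies at 2.36, 2.16 and 1.51 and Tgfb2 at -1.60, -1.76 and -0.51 in these groups, and no trauma point is filled.

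Ltbp2 encodes a matrix protein of the latent TGF-beta binding protein family that, unlike its relatives, does not bind latent TGF-beta and is found with elastic fibres. It had 4.12 to 13.6 CPM in ligature plus trauma, 8.02 to 15.3 CPM in ligature, 7.04 to 17.7 CPM in trauma and 5.61 to 13.9 CPM in control libraries. All groups overlapped, and its log2 fold change in ligature against control was 0.39 (95% interval -0.49 to 1.27, adjusted p = 0.589). Without the 3 libraries shifted to short transcripts it was 0.43.

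Of the receptor genes, Tgfbr3 was called lower in 1 comparison and Tgfbr1 and Tgfbr2 were called in none when all 16 libraries were used. Tgfbr1, the type I receptor whose kinase phosphorylates SMAD2 and SMAD3, had 204, 108, 113 and 317 CPM in ligature plus trauma libraries 1 to 4, 405, 58.7, 315 and 291 CPM in ligature, 89.3, 107, 55.6 and 68.4 CPM in trauma and 113, 148, 130 and 152 CPM in control libraries. Of the 8 libraries with a ligature, the 3 lowest were the 3 shifted to short transcripts, and the other 5 lay above every library without a ligature. With all libraries the log2 fold change was 0.98 ± 0.45 in ligature against control (adjusted p = 0.174), 0.45 ± 0.45 in ligature plus trauma against control (adjusted p = 0.527) and 1.21 ± 0.45 in ligature plus trauma against trauma (adjusted p = 0.144), and none was called. Without the 3 libraries it was 1.29 ± 0.23 (adjusted p = 0.00578), 0.93 ± 0.26 (adjusted p = 0.0721) and 1.70 ± 0.26 (adjusted p = 0.0101), in fits that called 7.99%, 3.26% and 1.77% of all genes. With each library's slope on transcript length as a covariate all 3 were called, at 1.53 (adjusted p = 0.00121), 1.45 (adjusted p = 0.006) and 1.502 (adjusted p = 0.00168), where 10.3%, 5.63% and 8.6% of all genes were called. Leaving out ligature library 2 alone also gave a call in ligature against control (adjusted p = 0.0277) and in ligature plus trauma against trauma (adjusted p = 0.0282). Against control, trauma libraries were lower without overlap in Tgfbr1 (log2 fold change -0.76, adjusted p = 0.764), a value that was -0.05 with the length covariate.
Tgfbr2, the type II receptor that binds the ligand first, had 101 to 212 CPM in ligature plus trauma, 67.7 to 208 CPM in ligature, 88.4 to 162 CPM in trauma and 157 to 196 CPM in control libraries. Its lowest value was in ligature library 2. The log2 fold change in ligature against control was -0.12 (95% interval -0.79 to 0.54, adjusted p = 0.845), and 0.11 without the 3 libraries.
Tgfbr3 encodes betaglycan, the co-receptor that presents TGF-beta2 and also binds inhibin. It had 37.6, 13.9, 21.9 and 35.3 CPM in ligature plus trauma libraries 1 to 4, 36.5, 14.7, 47.4 and 42.3 CPM in ligature, 38.4, 34.4, 25.5 and 44.5 CPM in trauma and 61.4, 49.2, 50.03 and 86.8 CPM in control libraries. Each of the 3 treated groups lay below all control libraries, and the lowest 3 values were again in the 3 shifted libraries. The log2 fold change was -1.19 ± 0.36 in ligature plus trauma (adjusted p = 0.0415), -0.81 ± 0.36 in ligature (adjusted p = 0.154) and -0.79 ± 0.36 in trauma (adjusted p = 0.71), all against control. The call in ligature plus trauma was lost without the 3 libraries (-0.77, adjusted p = 0.138), with the length covariate (-0.43, adjusted p = 0.369), without the filter on low counts (adjusted p = 0.0628) and in 9 of the 16 fits that left out 1 library (adjusted p 0.0514 to 0.121). These were the fits without any 1 control library, ligature library 1, trauma library 1 or 2, or ligature plus trauma library 2 or 3.

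**Figure D3:**
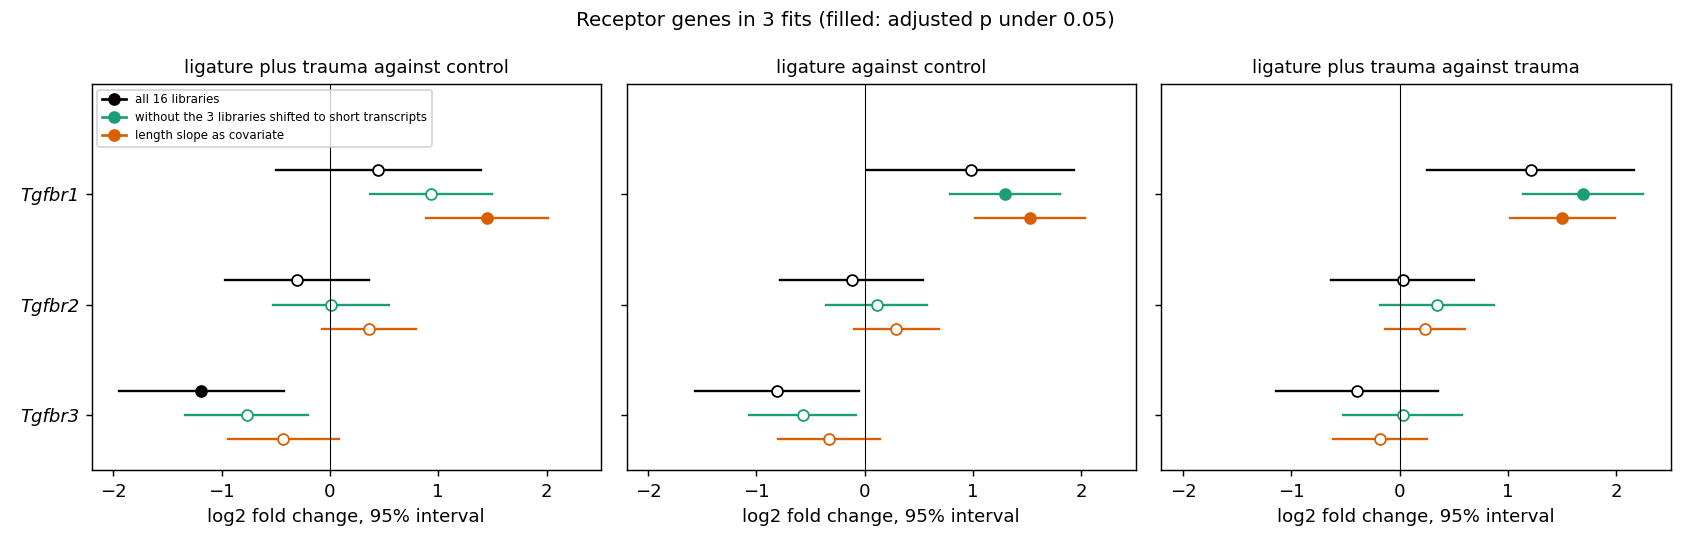
Log2 fold changes (x axis) with 95% intervals of the receptor genes Tgfbr1, Tgfbr2 and Tgfbr3 (rows) in 3 comparisons (panels) and 3 fits (all 16 libraries, without the 3 libraries shifted to short transcripts, and with the slope on transcript length as a covariate); filled points have an adjusted p under 0.05. Tgfbr1 in ligature against control lies at 0.98, 1.29 and 1.53 in the 3 fits, whereas Tgfbr3 in ligature plus trauma against control lies at -1.19, -0.77 and -0.43.

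Smad7, an inhibitory SMAD that competes for the type I receptor and is itself a TGF-beta target, had 9.00 to 12.8 CPM in ligature plus trauma, 5.60 to 15.9 CPM in ligature, 8.38 to 15.8 CPM in trauma and 13.7 to 17.4 CPM in control libraries. The ligature plus trauma libraries lay below all control libraries, whereas the other 2 treated groups overlapped control. No difference was called, with log2 fold changes of -0.42 in ligature plus trauma (adjusted p = 0.333), -0.49 in ligature (adjusted p = 0.281) and -0.48 in trauma (adjusted p = 0.764) against control. With the length covariate they were -0.02, -0.29 and -0.25 in that order. Without the 3 libraries shifted to short transcripts Smad7 was -0.58 in ligature plus trauma and -0.29 in ligature.

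With trauma alone edgeR called none of the 10 genes and 1 gene of all tested. At an unadjusted p under 0.05 there were 1450 genes, or 6.92%, and DESeq2 called 114 genes (0.544%), none of the 10 among them. Inhba, Tgfb2 and Tgfbr3 were the 3 of the 10 genes under that unadjusted level in edgeR. With the slope on transcript length as a covariate in edgeR, Inhba stayed under it (log2 fold change 1.52, unadjusted p = 0.0092). Tgfb2 (-0.28, unadjusted p = 0.13) and Tgfbr3 (-0.25, unadjusted p = 0.272) did not. The log2 fold change of Tgfb2 was -0.51 (95% interval -0.98 to -0.04, adjusted p = 0.699), and trauma library 1, at 108 CPM, lay within the control range while the other 3 lay below it.

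Adding trauma to the ligature gave no call among the 10 genes or among all genes by edgeR (0%). There were 734 genes at an unadjusted p under 0.05, none of them among the 10, and DESeq2 called 31. The log2 fold changes of ligature plus trauma against ligature ran from -0.56 for Fst to 0.30 for Tgfb3. For Tgfb2 the difference was 0.16 (95% interval -0.31 to 0.63) and for Inhba 0.20 (95% interval -0.75 to 1.16). The widest interval was that of Inhba and the narrowest that of Tgfb2, so a difference of 1 log2 unit was outside the interval for Tgfb2 and inside it for Inhba.
The interaction, which is the effect of trauma with the ligature less its effect without it, was called for none of the 10 genes and for no gene by edgeR (0%), with 1032 genes at an unadjusted p under 0.05 and 51 called by DESeq2. It was 0.67 for Tgfb2 (95% interval 0.01 to 1.34) and -1.31 for Inhba (95% interval -2.66 to 0.05), both with an adjusted p of 1. The ligature difference of Inhba was thus 2.16 without and 0.85 with trauma, a gap whose interval included 0. The interaction of Inhba was -0.58 without trauma library 2 and -1.64 without trauma library 1.

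**Figure D4:**
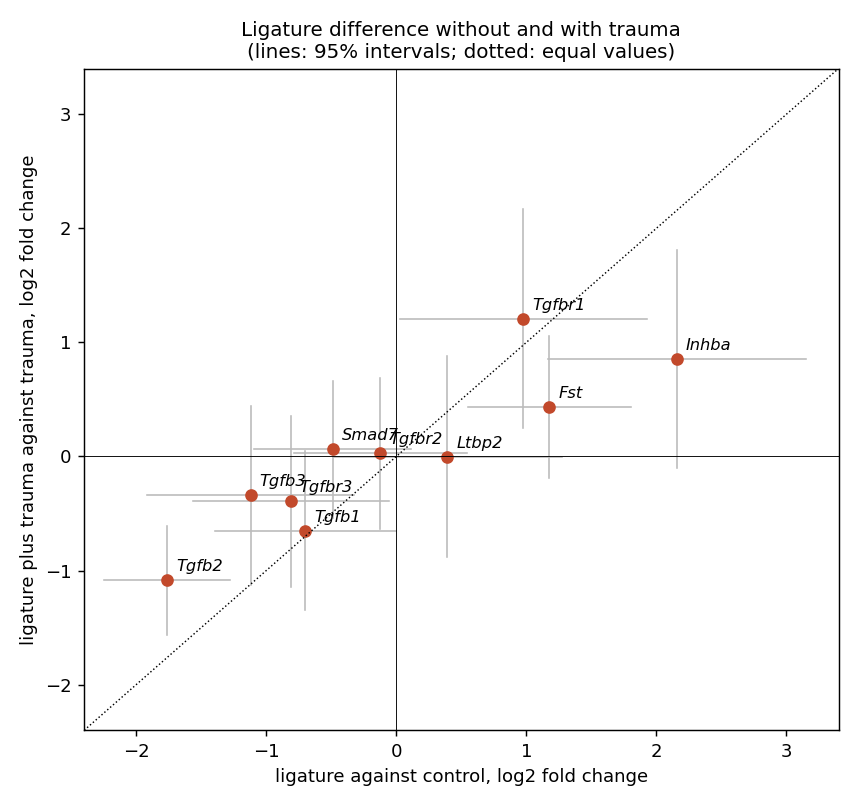
Log2 fold change of the 10 genes in ligature plus trauma against trauma (y axis) and in ligature against control (x axis), which share no library; grey lines are 95% intervals and the dotted line marks equal values. Tgfb2 lies at -1.09 and -1.76 and Tgfbr1 at 1.21 and 0.98 on the y and x axes, while Inhba, at 0.85 and 2.16, lies farthest below the dotted line.

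The genes whose log2 CPM followed Inhba most closely over the 16 libraries, among 11086 candidates, were Ccl2 (Pearson r = 0.946), Sfrp4 (0.935), Medag (0.932), Casp4 (0.931) and Cav1 (0.925). For Tgfb2 they were Mertk (0.957), Smarca2 (0.955), Ppfibp2 (0.950), Mef2c (0.950) and Cntfr (0.948). The libraries fall into groups that differ in many genes, so these coefficients describe the difference between groups as well as the spread within them.

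Other genes of the pathway were looked at in 4 lists. Of 17 measured ligands and binding proteins (Nodal did not pass the filter), 1 was higher and 1 lower in ligature than in control libraries, a share near the 10.7% called over all genes, with a list median of -0.43 on the log2 scale beside -0.05 over all genes. Nrros, which tethers latent TGF-beta on macrophages and microglia, had 19.2 to 29.0 CPM in ligature and 12.2 to 16.4 CPM in control libraries (log2 fold change 0.82 ± 0.23, adjusted p = 0.0335). Ltbp4, which anchors latent TGF-beta1 in matrix, had 11.5 to 42.7 CPM in ligature and 42.0 to 73.2 CPM in control libraries (-1.25 ± 0.38, adjusted p = 0.0476). Neither was called without the 3 libraries shifted to short transcripts (adjusted p = 0.0702 for Nrros and 0.0586 for Ltbp4), and of the 16 fits without 1 library the Nrros call was lost in 7 (any control library and ligature libraries 1, 2 and 4) and the Ltbp4 call in 11, holding without library 3 of each group or ligature plus trauma library 4. The 1 call in the 13-library fit, Inha, the inhibin alpha chain, was seen at under 3 CPM. Lower in ligature plus trauma than in control libraries were Ltbp4 (-1.42 ± 0.38, adjusted p = 0.0268) and Itgb6 (-2.76 ± 0.82, adjusted p = 0.0388), the epithelial integrin chain that releases TGF-beta from its latent complex. Neither was called without the 3 libraries (adjusted p = 0.142 for Ltbp4 and 0.177 for Itgb6), and without 1 library the calls were lost in 6 fits for Ltbp4 (control libraries 1, 2 and 4 and ligature plus trauma libraries 1, 2 and 3) and in 5 for Itgb6 (control libraries 1 and 2 and ligature plus trauma libraries 2, 3 and 4). Itgb6 fell beside epithelial markers, 9 of 10 of which were lower in that comparison, with sums of 885.8 to 3214 CPM in ligature plus trauma and 1553 to 13840 CPM in control libraries. Their part in its fall was not tested.

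Of 11 further receptors and transducers 1 was higher and none lower in ligature than in control libraries, again near the 10.7% of all genes, with a median of -0.37. Eng, the endothelial co-receptor endoglin, had 35.9 to 103.8 CPM in ligature and 34.8 to 50.5 CPM in control libraries, with a log2 fold change of 0.90 ± 0.28 (adjusted p = 0.0481), and 1.12 without the 3 libraries (adjusted p = 0.00403). Its call was lost in 15 of the 16 fits that left out 1 library, all but that without ligature library 2, with adjusted p up to 0.123, and endothelial markers were higher in the same libraries. Smad4, the shared partner of the activated SMAD proteins, had a log2 fold change of -0.82 (adjusted p = 0.0509), and the endothelial type I receptor gene Acvrl1 of 0.63 (adjusted p = 0.0594).
Of 10 inhibitors and feedback genes 1 was called in ligature against control, where 10.7% of all genes were. Tgif1, a repressor of SMAD-driven transcription, was called higher in ligature (0.79 ± 0.24, adjusted p = 0.0444) and in ligature plus trauma (0.81 ± 0.24, adjusted p = 0.0372), each against control, and in neither without the 3 libraries (adjusted p = 0.138 and 0.128). Without 1 library the call in ligature was lost in 13 of the 16 fits, holding without ligature library 3, trauma library 3 or ligature plus trauma library 4. The call in ligature plus trauma was lost in 6, those without control library 2, 3 or 4 or ligature plus trauma library 1, 2 or 3. The list median in ligature against control was -0.52. Bambi, a pseudoreceptor that blocks TGF-beta and activin signalling, had a log2 fold change of -0.96 (adjusted p = 0.0631).

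Of 16 known target genes, 2 were higher and 2 lower in ligature than in control libraries, where 5.88% of all genes were higher and 4.78% lower, and the list median was 0.03. Acta2, the smooth muscle actin of myofibroblasts and vessel walls, had 65.9 to 448.9 CPM in ligature and 13.2 to 29.6 CPM in control libraries (log2 fold change 3.10 ± 0.49, adjusted p = 0.00123). Tgfbi, a secreted matrix protein induced by TGF-beta, had 122.7 to 166.3 CPM in ligature and 38.7 to 83.2 CPM in control libraries (1.34 ± 0.24, adjusted p = 0.00316). The genes for the chains of type I collagen were lower, with log2 fold changes of -1.07 ± 0.25 for Col1a2 (adjusted p = 0.0138) and -0.95 ± 0.25 for Col1a1 (adjusted p = 0.0256). All 4 were also called without the 3 libraries, where Acta2 stood at 2.33 and Lox was added. The Col1a1 call was lost without control library 2, control library 4 or ligature library 1. In ligature plus trauma against control, where 12.5% of all genes were called, Acta2 (2.39, adjusted p = 0.00585), Tgfbi (1.07, adjusted p = 0.0118) and Junb (1.41, adjusted p = 0.0233), an AP-1 subunit, were higher, and Col1a1 (-1.56, adjusted p = 0.00197) and Col1a2 (-1.27, adjusted p = 0.00601) were lower. Without the 3 libraries Acta2 and Col1a1 were still called there, and Tgfbi, Junb and Col1a2 were not. The Junb call was also lost without control library 3 or 4 or ligature plus trauma library 2. In trauma against control none of the 16 targets was called. Trauma libraries had 6217 to 8372 CPM of Col1a1, 11940 to 16540 of Col1a2 and 71.2 to 184.3 of Junb. Control libraries had 10290 to 13540, 11920 to 22750 and 38.9 to 88.2 CPM in that order, and ligature libraries 3635 to 7984, 6762 to 11460 and 87.1 to 125.7 CPM. In ligature plus trauma against trauma Lox, the collagen cross-linking oxidase, was the 1 target called (1.48 ± 0.37, adjusted p = 0.0299), and this call was lost without any 1 of trauma libraries 1, 3 and 4 and ligature plus trauma libraries 3 and 4. Itgb6, Junb and Lox were named after their values were seen.

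**Figure D5:**
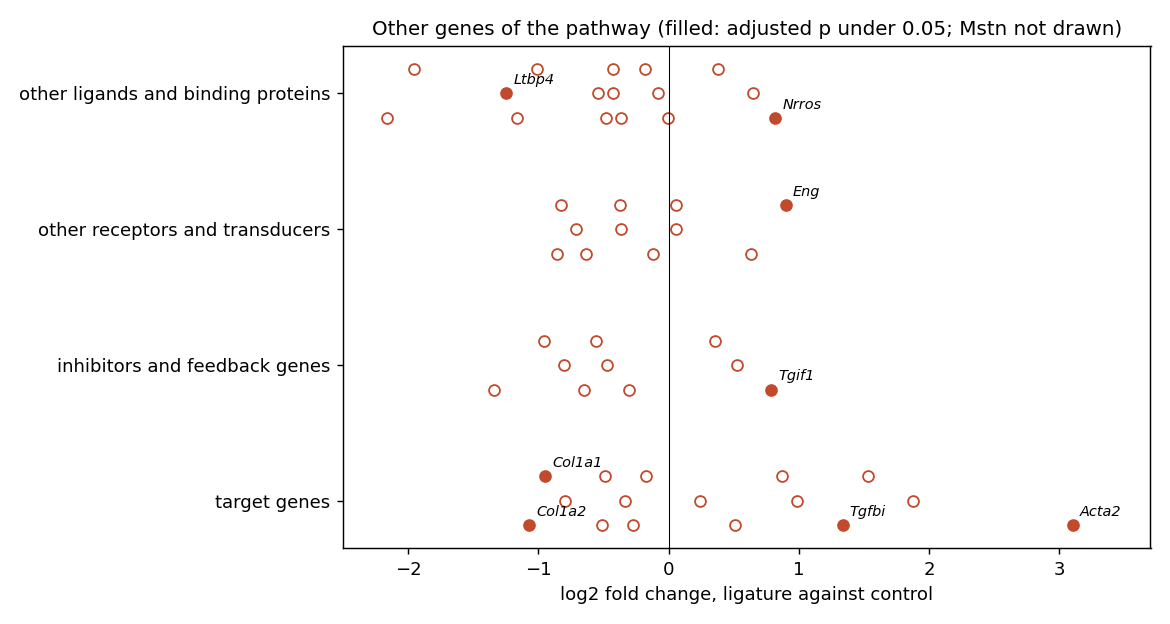
Log2 fold change in ligature against control (x axis) of the measured genes of the 4 lists (rows); filled points have an adjusted p under 0.05 by edgeR, and vertical offsets within a row carry no meaning. The called points are Ltbp4 at -1.25, Nrros at 0.82, Eng at 0.90, Tgif1 at 0.79, Col1a1 at -0.95, Col1a2 at -1.07, Tgfbi at 1.34 and Acta2 at 3.10; Mstn, at 0 in every control library, is not drawn.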

How the data were processed

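RNA from periodontal ligament of 16 libraries (4 groups of 4) was taken up in TRIzol, column-purified and enriched for poly(A) RNA, per the labels' protocols. The authors deposited 1 table of raw counts of reads per gene, as whole numbers. Build GRCm39 and the tools DESeq2 1.32.0, StringTie 2.1.7, HISAT2 2.2.1, FastQC 0.11.9 and Trimmomatic 0.39 are listed without roles, per the submitters' processing notes. Which tool counted, with which annotation and strand setting, is not given in the sources used here. Symbols and exon lengths came from GENCODE M21 (GRCm38), which matched 52083 of 55359 gene IDs; genes without a symbol held 0.205% of counts.

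The main test was edgeR 4.0.16 (R 4.3.3): trimmed-mean scaling, expression filter by group (minimum count 10), and 1 quasi-likelihood fit of all 4 groups with 12 residual degrees of freedom. The 6 contrasts (5 between groups and the interaction) were each adjusted over 20953 genes. CPM values carry the SD over the libraries of a group. The fitting was tested on simulated data.

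The members and gene lists were chosen with earlier results of these data known. All 10 members are named, of each list up to 4 genes with the lowest p in ligature against control, and the 5 genes most like the called members with the highest and lowest fold change. Alternatives were DESeq2 1.42.0, its size factors in edgeR, no filter, a stricter filter (50 counts in 4 libraries), the compared groups only, a replicate block, limma-voom with sample weights, each library left out, 13 libraries without the 3 shifted to short transcripts, and a transcript-length slope as covariate. The last was each library's slope of log2 CPM on log2 length, centred. For the lists, the 13-library fit was chosen after seeing the data. No libraries were duplicates (highest correlation 0.948). The values of 1 gene of the target list are not reported here.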

Additional observations from a re-analysis of the deposited data

Results flagged for a closer look

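Among the 40 combinations of the 10 genes and 4 groups, a single library stood apart from the others of its group in 4, where chance alone flags about 1 in 20. Trauma library 1 was high in Tgfb2, at 107.6 CPM against 70.74 CPM in the nearest trauma library, and in Fst, at 59.01 CPM against 32.79 CPM. Trauma library 2 was high in Ltbp2, at 17.68 CPM against 7.257 CPM in the nearest. Ligature plus trauma library 3, which is 1 of the 3 shifted to short transcripts, was low in Tgfb3, at 86.42 CPM against 146 CPM in the nearest library of its group.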

How the results depend on the processing

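The numbers of the 10 genes called were the same within 1.5 times under DESeq2 size factors, no filter, the stricter filter, the compared groups only and the 13-library fit in every comparison; the interaction needs all groups, so no fit of compared groups was made for it. limma-voom called 5 genes in ligature against control, and the length covariate 2 in ligature plus trauma against trauma. Like counts did not always mean the same genes. In ligature plus trauma against trauma the 13-library fit called Tgfbr1 and not Tgfb2. In ligature plus trauma against control the length covariate called Tgfbr1 and not Tgfbr3. With each library left out in turn the 10 genes gave 2 to 4 calls in ligature against control, 2 to 3 in ligature plus trauma against control, 1 to 2 in ligature plus trauma against trauma and 0 to 0 in trauma against control, ligature plus trauma against ligature and the interaction. No called gene changed sign; 54 values that were not called did.

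Over all genes, DESeq2 called 3698 in ligature against control, 114 in trauma against control, 4240 in ligature plus trauma against control, 31 against ligature, 2098 against trauma and 51 for the interaction. Fitting the compared groups only gave 1369 calls in ligature against control. The 13-library fit gave 743 in ligature plus trauma against control, 403 against trauma and 2 for the interaction, and the length covariate 1179, 1802 and 1. Without 1 library the counts were 1430 to 2125 in ligature against control, 0 to 3 in trauma against control, 1022 to 4332 in ligature plus trauma against control, 0 to 0 against ligature, 565 to 1525 against trauma and 0 to 2 for the interaction. The cause was not tested.

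Whether samples with the same replicate number share more than that number is not known. Their deviations from the group means correlated at -0.157 to 0.215 (median 0.02), with 5 of 24 pairs above 0.1. Pairs with different numbers gave -0.300 to 0.236 (median -0.005), with 8 of 72 above 0.1. These values do not settle whether the numbers mark a pairing. With a replicate block the 10 genes gave 3, 0, 3, 0, 1 and 0 calls and all genes 2082, 1, 2588, 0, 1032 and 0, in the order ligature, trauma and ligature plus trauma against control, ligature plus trauma against ligature and against trauma, and the interaction. With 4 libraries a group the spread between libraries, rather than depth, limits the precision; for Tgfb1, at 78 to 355 reads, counting error adds to it.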

Other observations

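Inhbb, the activin beta B chain, was called in no comparison. It was chosen after its values were seen and had 22.3 to 35.9 CPM in ligature plus trauma, 19.2 to 28.8 CPM in ligature, 20.2 to 52.6 CPM in trauma and 26.2 to 39.6 CPM in control libraries. All groups overlapped, and its log2 fold change by edgeR in ligature against control was -0.43 (95% interval -1.01 to 0.16, adjusted p = 0.34).

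The ratio of Tgfb2 to Tgfb3 in CPM, which is not per length, ranged over 0.213 to 0.327 in ligature plus trauma libraries and over 0.198 to 0.491 in those with the ligature alone. It ranged over 0.357 to 0.683 with trauma alone and over 0.386 to 0.558 in control libraries. The ligature plus trauma libraries lay below every trauma and control library, and the ligature libraries overlapped them. No test was run on this ratio.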
